A study of Mus musculus with 15 samples.

Results

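Untreated bone marrow-derived macrophages (BMDMs) were compared with BMDMs exposed to IL-4, by RNAseq of 3 libraries on each side. These are the 3 libraries labelled control and the 3 labelled IL-4 among the 15 libraries of the series, and every gene with enough reads was followed in both directions, which left 13428 genes to test of the 53465 identifiers in the deposited count table. Both groups came from mouse bone marrow grown for 7 days in DMEM with fetal bovine serum and M-CSF at 20 ng/ml, the growth factor that drives marrow cells to become macrophages. Control cells then received no added cytokine, and IL-4 cells received IL-4 at 10 ng/ml for 24 h. The study calls the RNAseq samples biological replicates and describes its data in general as coming from independent experiments. Which mice and cultures gave each library is not stated, so the p-values given here measure the spread between these samples.

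IL-4 is a type 2 cytokine made by T helper cells, basophils, eosinophils and innate lymphoid cells. It binds the IL-4 receptor alpha chain, which pairs with the common gamma chain or with the IL-13 receptor alpha 1 chain, and Janus kinases bound to these chains phosphorylate the transcription factor STAT6 (and, through IRS2, activate phosphatidylinositol 3-kinase). STAT6 enters the nucleus and binds DNA directly, and it is known both to activate and to repress genes in macrophages. The state reached in this way is called alternative or M2 activation and is known for resistin-like and chitinase-like secreted proteins, for the mannose receptor and for functions in helminth defense and tissue repair.

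Depth was alike in both groups, at 17001352 to 18278484 counts on genes per control library and 17787364 to 18479299 per IL-4 library. Control libraries had a count for 19067 to 19363 genes, and IL-4 libraries for 17618 to 17647. Mitochondrial transcripts held 1.72% to 1.79% of the counts in control and 1.95% to 2.01% in IL-4. Principal component 1 (91.8% of the variance) separated the groups, and no library stood apart from the others of its group. The coefficient of biological variation between replicates was 4.48% in control and 4.54% in IL-4. Levels are given as counts per 1000000 (CPM), normalized with edgeR's trimmed mean of M-values (TMM), as the value of each library or as the mean ± SD of the 3 libraries (n = 3 in each group throughout). Such levels can be compared between groups for 1 gene, but not between genes, because they are not divided by gene length.

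IL-4 changed most of the expressed transcriptome. In edgeR's quasi-likelihood test, 10277 of the 13428 genes (76.5%) had a Benjamini-Hochberg adjusted p under 0.05. Of all tested genes, 37.8% (5082 genes) rose and 38.7% (5195 genes) fell, so that calls in both directions were about equally frequent with TMM scaling. This balance depends on the scaling, which sets where no change lies. With scaling by library totals 4512 genes rose and 5725 fell, and the total RNA per cell is not known from these data. The changes were not equally large. Among the genes that rose the median log2 fold change was 0.67, and among those that fell it was -0.81. Past a log2 fold change of 1 in size, 10.6% of the tested genes rose (1428) and 15.8% fell (2125), and past a log2 fold change of 2, 2.35% rose (315) and 6.93% fell (930). The median log2 fold change of all tested genes was -0.013, a value that depends on the scaling in the same way. With so many genes past the threshold, a call by itself separates few genes from the rest, and the size of a change and the counts in both directions are given beside it below. In bulk RNA a lower level can come from fewer cells of a type or from less RNA per cell, and these cannot be told apart in this design.

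The excess of strong decreases lay among genes of low level. In the lowest quintile of the tested genes by mean level (0.332 to 2.90 CPM), 19.8% fell by more than 2 on the log2 scale and 3.80% rose by more than 2. In the highest quintile (from 81.1 CPM), the shares were 1.49% and 1.86%, and 50.7% of these genes rose against 38.3% that fell. Of the strongly changed genes, 178 that rose had at least 10 CPM in IL-4 and 282 that fell had at least 10 CPM in control. At most 3 counts in every IL-4 library were left for 268 of the genes that fell, while 33 of the genes that rose had at most 3 counts in every control library. For such genes a fold change is a lower bound, computed against 3 counts per library. By class of transcript, 39.5% of the 11688 protein-coding genes rose and 39.6% fell. Of 283 long intergenic noncoding RNAs 14.5% rose and 49.1% fell, of 244 antisense transcripts 9.02% rose and 43.0% fell, and of 614 processed pseudogenes 49.3% rose and 10.4% fell. The last of these classes can share reads with the parent genes, and whether reads were counted by strand is not given in the sources used here.

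**Figure D1:**
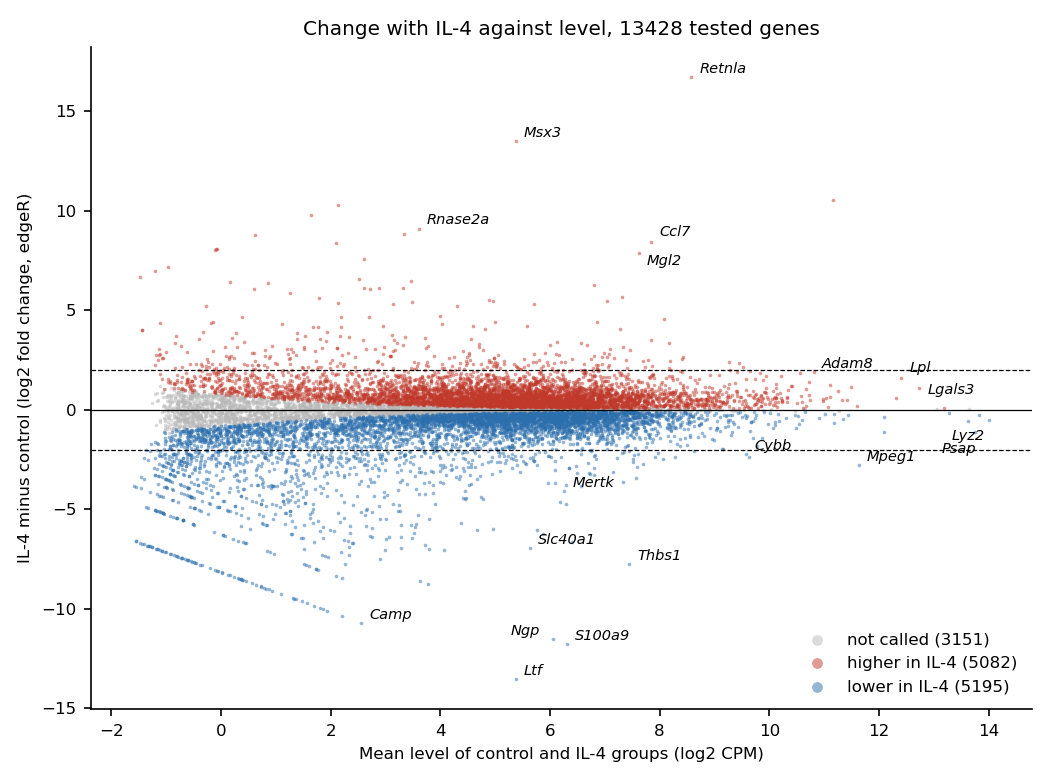
Log2 fold change of IL-4 over control (vertical axis) against the mean level of the control and IL-4 groups in log2 CPM (horizontal axis) for the 13428 tested genes, one point a gene, colored by call, with some of the genes named in the text labelled. The strong decreases (930 genes below -2) outnumber the strong increases (315 genes above 2) and lie mostly at low levels, where streaks at the lower left are genes without reads in IL-4 whose fitted values are not fold changes in a strict sense.

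The genes raised most, among those with at least 10 CPM in IL-4 and no overlap between groups, were led by secreted effectors. *Retnla* (ENSMUSG00000061100, chr16:48842551-48844461, plus strand in GRCm38), which encodes the secreted resistin-like molecule alpha, had 0, 0 and 0 CPM in control and 698, 796 and 786 CPM in IL-4. The gene had no count in any control library, and its level in IL-4 was at least 4577-fold higher than 3 counts per library would give. *Rnase2a*, an eosinophil-associated ribonuclease with chemoattractant activity, had 0, 0.0561 and 0.0571 CPM in control and 23.5, 25.2 and 24 CPM in IL-4, at least 146-fold higher. *Pla2g5*, a secreted phospholipase A2 that frees fatty acids from phospholipids, had 0.264, 0.0561 and 0 CPM in control and 10.9, 12.4 and 10.8 CPM in IL-4 (log2 fold change 6.6 ± 0.32 SE, edgeR adjusted p = 5.69e-20). In each of these genes every IL-4 library was above every control library.

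*Ccl7*, a chemokine that attracts monocytes, had 1.53, 1.57 and 0.856 CPM in control and 444, 441 and 487 CPM in IL-4 (log2 fold change 8.42 ± 0.088, edgeR adjusted p = 1.88e-39). *Mgl2*, a galactose-binding C-type lectin, had 1.8, 1.8 and 1.26 CPM in control and 406, 405 and 361 CPM in IL-4 (log2 fold change 7.91 ± 0.086, edgeR adjusted p = 3.43e-39). Both genes were low in every control library and high in every IL-4 library. *Flt1*, a receptor for vascular endothelial growth factor, had 3.91, 2.19 and 2.34 CPM in control and 238, 216 and 208 CPM in IL-4 (log2 fold change 6.28 ± 0.092). *Rgs16*, which shortens signaling of G protein-coupled receptors, had 0.37, 0.168 and 0.171 CPM in control and 20.9, 22.3 and 22 CPM in IL-4 (log2 fold change 6.46 ± 0.21). *Mboat2*, an enzyme that remodels phospholipids, had 0.264, 0.168 and 0.0571 CPM in control and 13.3, 11.1 and 11.7 CPM in IL-4 (log2 fold change 6.12 ± 0.27). The 3 remaining genes of this set are not known as macrophage effectors: *Msx3*, a homeobox transcription factor, had no count in control and 78.1, 90.5 and 79.9 CPM in IL-4 (at least 499-fold higher), while *Kcnd3*, a potassium channel subunit, and *Map2*, a microtubule-associated protein, were at least 121-fold and 73-fold higher.

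Genes of high level gave the largest differences in CPM. *Lpl*, which encodes lipoprotein lipase, had 2640, 2817 and 2579 CPM in control and 8208, 7996 and 8223 CPM in IL-4 (log2 fold change 1.6 ± 0.037). *Lgals3*, the galectin 3 gene, rose from 4316 ± 235 to 9304 ± 125 CPM (log2 fold change 1.11). *Ctsl*, the lysosomal cysteine protease cathepsin L, rose from 1777 ± 61.5 to 4004 ± 196 CPM (1.17). *Adam8*, a cell surface metalloprotease, rose from 763 ± 22.8 to 2837 ± 101 CPM (1.9). *Cd36*, a scavenger receptor that takes up fatty acids and oxidized lipoproteins, rose from 1311 ± 75.8 to 3091 ± 96.5 CPM (1.24). *Anxa1*, the annexin A1 gene, rose from 653 ± 27.3 to 2363 ± 128 CPM (1.86). *Actb*, which encodes beta actin, rose from 4086 ± 36.8 to 6097 ± 134 CPM (0.58). In all of these the values of the groups did not overlap.

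**Figure D2:**
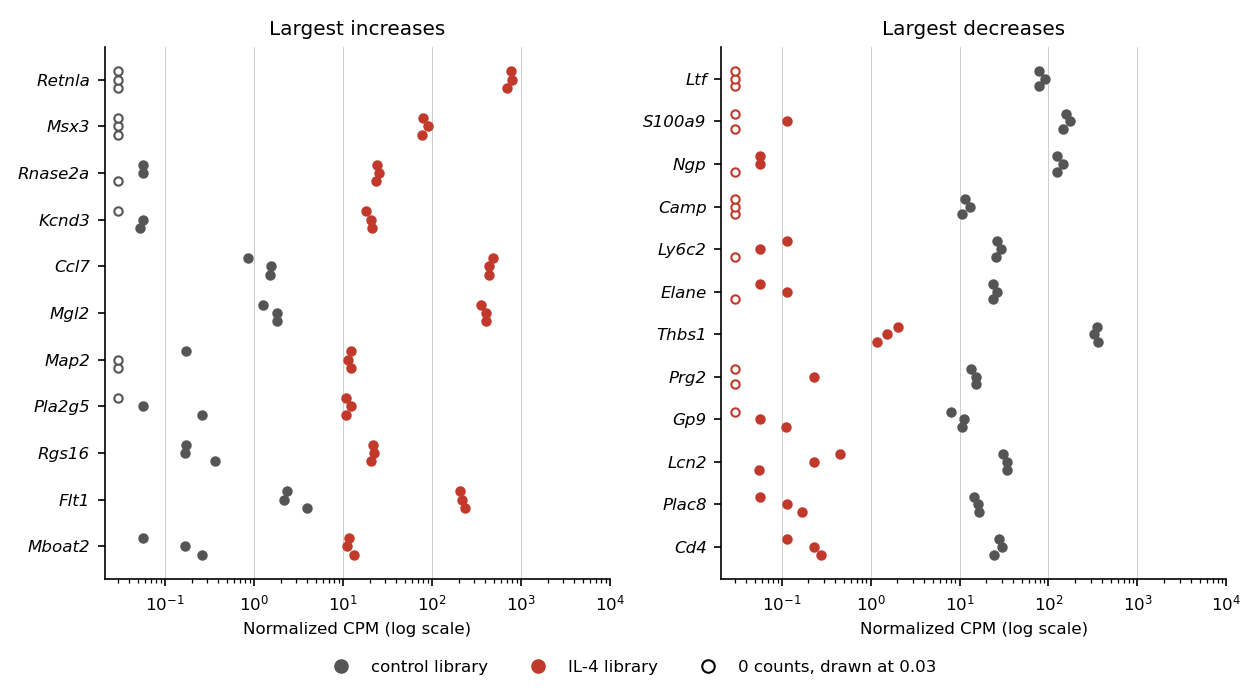
Normalized CPM of each library on a log axis for genes with the largest log2 fold changes, raised on the left and the 12 most lowered on the right, with control and IL-4 libraries in different colors and values of 0 placed at the left edge. In all of these genes the 3 IL-4 libraries lie on one side of the 3 control libraries, and 8 of the 12 lowered genes have at most 3 counts in every IL-4 library.

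The genes lowered most, by the same rule, are mostly known from other cells of the bone marrow. *Ltf* (ENSMUSG00000032496, chr9:111019271-111042767, plus strand), which encodes the iron-binding granule protein lactoferrin of neutrophils, had 78.7, 92.1 and 78 CPM in control and no count in IL-4, at least 487-fold lower. *S100a9*, a subunit of the calcium-binding protein calprotectin, had 145, 175 and 156 CPM in control and 0, 0.115 and 0 CPM in IL-4, at least 931-fold lower. *Ngp*, neutrophilic granule protein, had 126, 146 and 125 CPM in control and 0, 0.0576 and 0.0569 CPM in IL-4, at least 776-fold lower. *Camp*, the cathelicidin antimicrobial peptide, had 10.8, 13 and 11.4 CPM in control and none in IL-4, and *Elane*, neutrophil elastase, fell from 24.8 ± 1.71 to 0.0574 ± 0.0576 CPM. *Lcn2*, the siderophore-binding protein lipocalin 2, had 34.3, 34.2 and 31.1 CPM in control and 0.0559, 0.23 and 0.456 CPM in IL-4 (log2 fold change -7.04 ± 0.199). *Ly6c2*, a surface marker of monocytes, had 25.6, 29.5 and 26.4 CPM in control and 0, 0.0576 and 0.114 CPM in IL-4 (at least 159.6-fold lower), and *Plac8*, which is high in granulocytes and monocytes, was at least 92.5-fold lower. *Prg2*, the major basic protein of eosinophils, had 15.5, 15.5 and 13.5 CPM in control and 0, 0.23 and 0 CPM in IL-4. *Gp9*, a platelet glycoprotein, had 10.8, 11.1 and 8.1 CPM in control and 0.112, 0.0576 and 0 CPM in IL-4. *Cd4*, the T helper cell co-receptor, which some mouse myeloid cells also express, had 24.4, 30 and 28.1 CPM in control and 0.279, 0.23 and 0.114 CPM in IL-4. The 12th gene, *Thbs1* (ENSMUSG00000040152, chr2:118111876-118127133, plus strand), which encodes the matrix glycoprotein thrombospondin 1 of platelets and macrophages, had 356, 326 and 354 CPM in control and 1.17, 1.55 and 2.05 CPM in IL-4 (log2 fold change -7.76 ± 0.086, edgeR adjusted p = 6.65e-39). All 3 IL-4 libraries were far below all 3 control libraries in every one of these 12 genes.

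Marker lists of other blood and marrow cells, which hold several of these genes, moved in the same direction. The summed level of 13 granulocyte markers was 514 to 606 CPM in control and 1.94 to 3.52 CPM in IL-4, where *Ly6g*, *Camp*, *Ltf* and *Retnlg* had no count in any IL-4 library, and all 12 tested members fell. Megakaryocyte markers summed to 412 to 459 CPM in control and 74.6 to 80.2 CPM in IL-4, with 8 of 8 tested members lower. Most of what was left in IL-4 came from *Pf4*, which fell by only 0.47 on the log2 scale. Dendritic cell markers summed to 58.1 to 58.3 CPM in control and 2.53 to 2.79 CPM in IL-4 (8 of 9 tested members lower), with *Flt3*, *Siglech* and *Cd7* at 0 in IL-4. Markers of basophils, mast cells and eosinophils summed to 33.7 to 37.7 CPM in control and 5.47 to 6.87 CPM in IL-4 (6 of 7 lower), those of B cells to 12 to 12.9 CPM in control and 1.09 to 1.77 CPM in IL-4 (5 of 5 lower), those of erythroid cells to 3.7 to 5.19 CPM in control and 0.114 to 0.346 CPM in IL-4, and those of stromal cells to 17.5 to 22.8 CPM in control and 0.456 to 1.17 CPM in IL-4 (3 of 3 lower). Of the T and NK cell markers, *Cd3e* and *Gzma* had no count in either group, and the sum of 339 to 344 CPM in control and 190.5 to 199.5 CPM in IL-4 was nearly all *Il7r*, which macrophages can also express. Many of the strongest decreases were thus of genes that mark cells other than mature macrophages. These values are given again below for groups of genes that such cells express, and their part in each result was not tested.

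Markers of the macrophages themselves were high in both groups and moved in both directions. Of 10 markers 3 rose and 7 fell, and their summed level was 19808 to 22039 CPM in control and 15153 to 15702 CPM in IL-4. *Adgre1*, which encodes F4/80, rose from 856 ± 36.7 to 921 ± 23.2 CPM (log2 fold change 0.105), *Itgam*, which encodes CD11b, by 0.15 and *Cd68* by 0.41 on that scale. With scaling by library totals only *Cd68* kept its call among these 3, and that of *Adgre1* was also lost with upper-quartile scaling, without control replicate 1 and without IL-4 replicate 2. *Csf1r*, the M-CSF receptor gene, changed from 2227 ± 102 to 1902 ± 61.4 CPM (-0.23). *Lyz2*, lysozyme, changed from 15141 ± 975 to 10111 ± 341 CPM (-0.58). *Fcgr1*, the high-affinity IgG receptor, changed from 157 ± 2.92 to 105 ± 1.43 CPM (-0.58). *Ptprc*, which encodes CD45, changed from 609 ± 10.6 to 267 ± 7.51 CPM (-1.19). The larger decreases were those of *Cd14*, an LPS co-receptor (-1.49), *Aif1*, a calcium-binding protein of macrophages (-1.71), and *Mertk*, a receptor for dying cells (-4.06). Monocyte markers were split, since *Chil3* and *Fn1* rose while 5 of 7 fell, among them *Ccr2*, the receptor by which monocytes leave the marrow, from 83.4 ± 1.77 to 15.4 ± 1.01 CPM (-2.44). *F13a1*, coagulation factor XIII, fell from 42.1 ± 4.43 to 1.97 ± 0.297 CPM (-4.41).

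**Figure D3:**
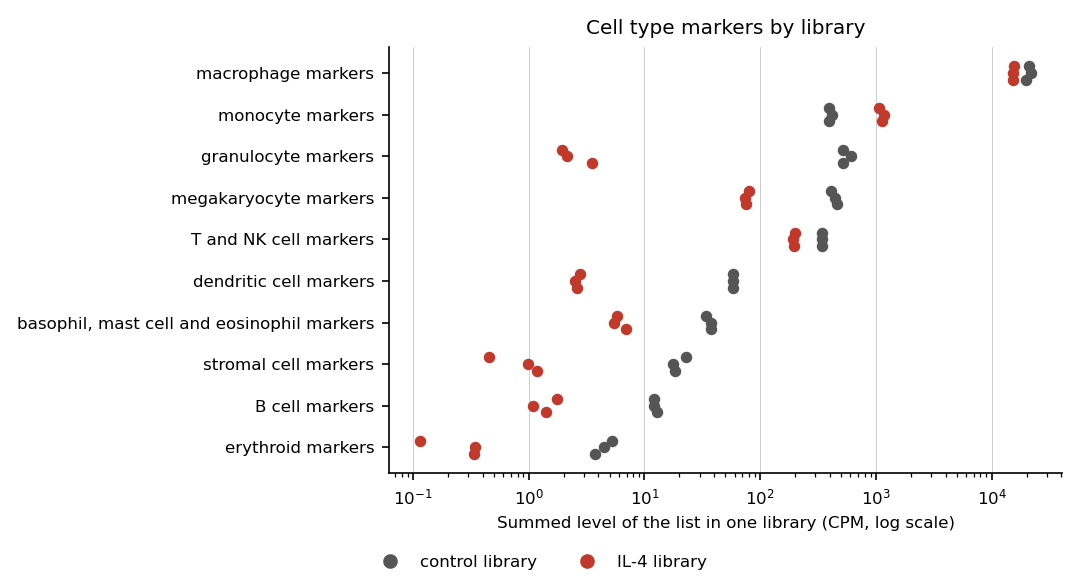
Summed normalized CPM of marker lists (log axis) in each control and IL-4 library, one point a library. The macrophage list is lower in every IL-4 library, by a small factor (19808 to 22039 CPM in control and 15153 to 15702 CPM in IL-4). The monocyte sum is higher in IL-4 through *Fn1* and *Chil3*, while its 5 other tested members fell, and the remaining lists are lower in every IL-4 library, the granulocyte list by the largest factor.

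The largest decreases in CPM were measured in genes of high level. *Psap*, which encodes the precursor of the saposins that help to degrade sphingolipids, had 18307, 19527 and 18777 CPM in control and 8862, 8413 and 8947 CPM in IL-4 (log2 fold change -1.11 ± 0.035, edgeR adjusted p = 2.87e-25). *Ctsb*, cathepsin B, fell from 19532 ± 477 to 13511 ± 347 CPM (-0.53). *Ctsd*, cathepsin D, fell from 6008 ± 98.9 to 2742 ± 53.2 CPM (-1.13). *Mpeg1*, which encodes the pore-forming protein perforin-2 that acts against engulfed bacteria, had 5336, 5632 and 5583 CPM in control and 861, 790.1 and 796 CPM in IL-4 (-2.76 ± 0.0402), a larger change than that of any other of the 8 genes in this set. *Gpnmb*, a glycoprotein of lysosome-rich macrophages, fell from 15852 ± 274 to 13296 ± 468 CPM (-0.25). *Selenop*, the selenium carrier selenoprotein P, fell from 1324 ± 78.3 to 254 ± 13.1 CPM (-2.38). *Lrp1*, an endocytic receptor, fell from 2831 ± 96.9 to 1808 ± 181 CPM (-0.65). The groups did not overlap in any of them.

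The genes of the IL-4 receptor pathway were lower in IL-4 for the most part, and of the 6 inhibitors among them 3 rose and 3 fell. Of 16 tested members 4 rose and 11 fell, with a median log2 fold change of -0.49. *Il4ra* (ENSMUSG00000030748, chr7:125552120-125579474, plus strand), the chain that binds IL-4, had 88.6, 92.5 and 93.8 CPM in control and 39.1, 36.9 and 35.5 CPM in IL-4 (log2 fold change -1.3 ± 0.055, edgeR adjusted p = 1.57e-21). *Il13ra1*, its partner in the type II receptor, had 27, 25.7 and 26.2 CPM in control and 2.63, 3.69 and 2.62 CPM in IL-4 (-3.14 ± 0.13). The partner in the type I receptor, *Il2rg*, changed less, from 26.6 ± 1.53 to 19.2 ± 1.7 CPM (-0.47). In all 3 receptor chains every IL-4 library was below every control library, whereas the decoy receptor gene *Il13ra2* had no count in any of the 6 libraries. Of the kinases, *Jak1* fell by 0.31, *Tyk2* by 0.54 and *Jak3* by 0.67 on the log2 scale, and *Jak2* rose by 0.12, a call that was lost with each other scaling, with DESeq2, without control replicate 3 and without IL-4 replicate 2. *Stat6* itself had 262, 250 and 274 CPM in control and 285, 279.7 and 261 CPM in IL-4, with overlapping groups and a log2 fold change of 0.072 ± 0.044 that missed the threshold (edgeR adjusted p = 0.133; its sign turned with scaling by library totals, and it passed the threshold without IL-4 replicate 3). *Irs2*, the adaptor to phosphatidylinositol 3-kinase, and *Pik3r1*, that kinase's regulatory subunit, had log2 fold changes of -0.41 and -0.51, and the phosphatases *Ptpn1* and *Ptpn6* of -0.93 and -0.68.

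The suppressors of cytokine signaling, which are induced by STAT proteins and block the receptors' kinases, moved apart. *Socs1* had 1.06, 1.12 and 0.913 CPM in control and 41.7, 40 and 33 CPM in IL-4 (log2 fold change 5.2 ± 0.14, edgeR adjusted p = 5.36e-27). *Cish* had 0.158, 0.505 and 0.342 CPM in control and 5.03, 5.18 and 4.5 CPM in IL-4 (3.86 ± 0.31). *Socs2* rose from 2.73 ± 0.462 to 8.09 ± 0.718 CPM (1.57). *Socs3*, which is induced mostly by STAT3 and limits signaling of the IL-6 receptor subunit gp130, fell from 8.86 ± 1.95 to 1.76 ± 0.514 CPM (-2.32). *Socs1* was thus raised in all 3 IL-4 libraries and *Socs3* lowered in all 3.

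Established markers of alternative activation rose as a group. Of 27 tested members 23 rose and 4 fell, with a median log2 fold change of 2.7, against 37.8% and 38.7% of all tested genes and a median of -0.013. This list was compiled from genes known to respond to IL-4, and with earlier results of these data in view, so its direction is not independent evidence. Beside *Retnla*, *Rnase2a* and *Mgl2*, *Chil3*, a chitinase-like protein, rose from 179.5 ± 9.44 to 572 ± 9.72 CPM (1.67). *Mrc1*, the mannose receptor CD206, rose from 199 ± 6.44 to 1038 ± 7.16 CPM (2.38). *Clec10a*, a second galactose-binding lectin, rose from 17.3 ± 1.34 to 121 ± 3.97 CPM (2.8). Of transcription factors on the list, *Egr2* had 29.7, 29.3 and 30.4 CPM in control and 202, 186 and 192 CPM in IL-4 (log2 fold change 2.7 ± 0.052). *Klf4* had 10.7, 12.4 and 13.5 CPM in control and 117, 116 and 114 CPM in IL-4 (3.25 ± 0.067). *Myc* had 12, 11.7 and 12.1 CPM in control and 128, 129 and 128 CPM in IL-4 (3.42 ± 0.061). The 4 members that fell were *Ccl22*, a chemokine for T cells (from 5.22 ± 1.01 to 1.4 ± 0.422 CPM, -1.9), the repressor *Bhlhe41* (from 76.2 ± 3.95 to 23.7 ± 0.901 CPM, -1.69), *Tgm2*, transglutaminase 2 (from 153 ± 11.2 to 48.5 ± 2.91 CPM, -1.66), and *Clec7a*, the beta-glucan receptor Dectin-1 (-0.27). Of the members not tested for lack of reads, Alox15 had at most 15 counts in a control library and 2 in an IL-4 library, and Ccl17 at most 2 and 6.

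Promoters of genes named here were read to show the letters that STAT6 is known to bind, a palindrome of TTC and GAA with any 4 bases between them, in the window from 250 bases before to 50 bases after each annotated start (RefSeq, GRCm38.p6, where 9760 tested genes matched 12438 promoters). The motif reads the same on both strands. It was present in 5.58% of all these promoters, in 6.33% of the 300 promoters of genes that rose by more than 2 on the log2 scale (226 of 315 genes matched) and in 5.56% of the 845 promoters of genes that fell by more than 2 (652 of 930 genes matched). Among alternative activation markers it was in 4 of 27 promoters (18 of 27 genes matched). The palindrome was also in promoters of named genes that fell, such as *Lcn2*, *Mpo* and *Il12a*. The 4 windows below were picked from genes that rose, to show the letters and not a link with induction. They are printed 5′ to 3′ on the strand of the gene, with the palindrome in capitals.
Retnla, chr16:48842444-48842493, plus strand: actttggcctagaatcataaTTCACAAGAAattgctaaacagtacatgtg
Pdcd1lg2, chr19:29410817-29410866, plus strand: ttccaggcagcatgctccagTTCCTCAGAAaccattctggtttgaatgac
Edn1, chr13:42301271-42301320, plus strand: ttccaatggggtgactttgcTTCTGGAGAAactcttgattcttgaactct
Chac1, chr2:119351006-119351055, plus strand: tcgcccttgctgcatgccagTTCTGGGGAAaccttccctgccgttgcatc
Relative to the start (position 0), the palindrome began at positions -145, -82, -185 and -216. *Pdcd1lg2*, the checkpoint ligand PD-L2, had 0.686, 0.898 and 0.228 CPM in control and 4.75, 4.72 and 5.87 CPM in IL-4 (log2 fold change 3.06 ± 0.29). *Edn1*, the vasoconstrictor endothelin 1, had 0.0528, 0 and 0 CPM in control and 2.74, 2.3 and 1.59 CPM in IL-4 (at least 13.3-fold higher). *Chac1*, a glutathione-degrading enzyme, had 0.37, 0.449 and 0.399 CPM in control and 5.53, 4.78 and 5.87 CPM in IL-4 (3.71 ± 0.28). The shorter palindrome TTCNNNGAA, which other STAT proteins are known to bind, was in 6.79% of all promoters and 2 times in that of *Cish*, shown for its place at the start itself.
Cish, chr9:107296639-107296688, plus strand: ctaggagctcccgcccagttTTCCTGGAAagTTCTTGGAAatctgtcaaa
A match describes letters in a window and does not show that a protein binds there.

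Cell cycle genes moved in opposite directions by phase. Of 56 genes of DNA replication and entry into S phase 52 rose and 2 fell (median log2 fold change 1.61), and of 52 genes of mitosis and cytokinesis 5 rose and 41 fell (median -0.75). The 5 mitotic genes that rose became 2 with scaling by library totals and 3 with DESeq2, without control replicate 2 or without IL-4 replicate 2. *Ccnd1* (ENSMUSG00000070348, chr7:144929931-144939925, minus strand), the D-type cyclin that responds to growth signals, had 19, 17 and 16.9 CPM in control and 299.6, 309 and 273 CPM in IL-4 (log2 fold change 4.06 ± 0.0596, edgeR adjusted p = 3.28e-35). *Cdc6*, which loads the replicative helicase onto DNA, had 6.6, 5.45 and 5.53 CPM in control and 39.3, 42.2 and 38.1 CPM in IL-4 (2.76 ± 0.097). *Uhrf1*, which helps to copy DNA methylation, had 36.6, 32.9 and 32.4 CPM in control and 207, 233 and 204 CPM in IL-4 (2.66 ± 0.056). All 37 replication factors on the list rose (median 1.75), while of the 19 cyclins, kinases and E2F factors 15 rose, and *Ccna2*, cyclin A2 (-0.74), and *E2f2* (-0.23) fell, the call of *E2f2* being lost without control replicate 1. The 6 subunits of the replicative helicase, named after their values were seen, had log2 fold changes of 2.53 (*Mcm2*), 2.12 (*Mcm3*), 2.11 (*Mcm4*), 2.49 (*Mcm5*), 2.46 (*Mcm6*) and 2.16 (*Mcm7*).

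The mitotic genes that fell most were *Aspm*, a spindle pole protein, with 67, 51.9 and 57.1 CPM in control and 8.55, 11.4 and 8.54 CPM in IL-4 (log2 fold change -2.63 ± 0.097), *Ccnb2*, cyclin B2, with 75.4, 67.5 and 69.2 CPM in control and 12.3, 12.7 and 11.3 CPM in IL-4 (-2.55 ± 0.074), and *Cenpf*, a kinetochore protein, with 71.3, 55.1 and 61.9 CPM in control and 11.6, 10 and 10.8 CPM in IL-4 (-2.54 ± 0.088). *Mybl2*, the transcription factor B-Myb, was the exception in size, from 8.05 ± 0.909 to 40.4 ± 4.38 CPM (2.33), and *Pbk* and *Melk*, a pair of mitotic kinases, rose by 0.52 and 0.23. The call of *Melk* was lost with each other scaling, with DESeq2 and when any of 4 libraries (control replicates 2 and 3, IL-4 replicates 1 and 2) was left out. *Mki67*, the proliferation marker Ki-67, which is named here after its value was seen, fell from 435 ± 47 to 148 ± 15.7 CPM (-1.55). Of 20 cell cycle inhibitors and p53 targets 6 rose and 12 fell. *Cdkn1a*, which encodes the kinase inhibitor p21, had 34, 28.6 and 29.6 CPM in control and 225, 218 and 221 CPM in IL-4 (2.85 ± 0.054). *Cdkn2b* rose from 0.48 ± 0.145 to 2.31 ± 0.668 CPM (2.25) and the kinase *Plk2* from 113 ± 4.88 to 338 ± 8.8 CPM (1.58). *Cdkn1c*, which encodes p57, had 25.4, 27.1 and 24.9 CPM in control and 1.73, 1.9 and 2.62 CPM in IL-4 (-3.63 ± 0.14), and the p53 target *Trp53inp1* fell from 62.4 ± 2.84 to 9.93 ± 2.3 CPM (-2.65). *Ccng2*, a cyclin linked to cell cycle exit, fell from 68.1 ± 3.4 to 12.3 ± 1.54 CPM (-2.46). The share of cells in each phase was not measured here.

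**Figure D4:**
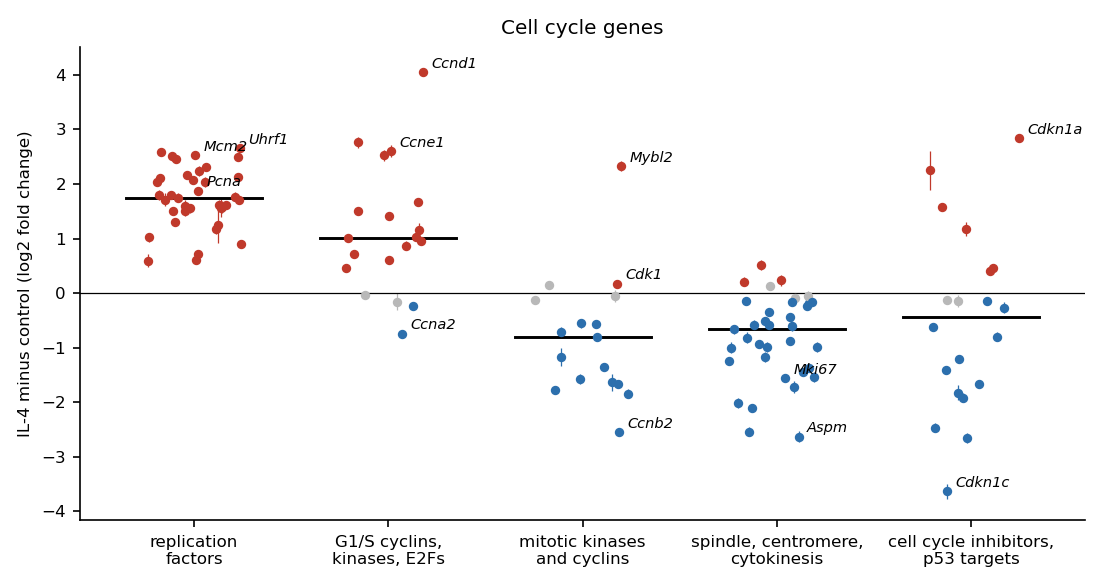
Log2 fold change of IL-4 over control (vertical axis) for each tested gene of 3 lists, 2 of them split by role into columns, with a line at 0, one point a gene, error bars of 1 SE and a short black line at each column's median. Of the 56 genes of DNA replication and S phase entry 52 lie above 0 with a call, of the 52 genes of mitosis and cytokinesis 41 lie below 0 with a call, and the inhibitors and p53 targets lie on both sides.

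The E2F transcription factors that turn on replication genes are known to bind GC-rich letters after a run of T, and the forms TTTGGCGC and TTTCCCGC and their reverse complements were searched in the same promoter windows. They were in 2.93% of all promoters, in 17 of the 55 promoters of the replication list (30.9%, with 45 of 56 genes matched) and in 4.44% of the 45 promoters of the mitosis list. Windows of helicase subunits and of *Cdc6* are printed to show the motif in capitals, 5′ to 3′ on the strand of the gene (RefSeq, GRCm38.p6).
Mcm3, chr1:20820264-20820313, minus strand: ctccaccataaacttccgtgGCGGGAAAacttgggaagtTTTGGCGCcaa
Mcm5, chr8:75109340-75109389, plus strand: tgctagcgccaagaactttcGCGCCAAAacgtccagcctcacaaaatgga
Mcm6, chr1:128359786-128359835, minus strand: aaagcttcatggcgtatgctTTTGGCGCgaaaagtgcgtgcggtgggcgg
Mcm7, chr5:138172019-138172068, minus strand: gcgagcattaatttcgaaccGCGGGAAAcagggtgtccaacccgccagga
Cdc6, chr11:98907993-98908042, plus strand: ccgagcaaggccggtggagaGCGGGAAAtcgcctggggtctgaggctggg
The list was chosen by function, and the motif was not tested against the fold changes.

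Genes that build ribosomes and make protein rose together. All 76 tested ribosomal protein genes rose, with a median log2 fold change of 0.66, from 0.1001 (*Rpl10*, whose groups overlapped and whose call was lost with each other scaling, with DESeq2, and without control replicate 1 or 3 or IL-4 replicate 2) to 1.54 (*Rps27l*). Scaling by library totals left 75 of the 76 called. Many of these genes have processed pseudogenes that share their reads, so single values are uncertain. Of 42 genes of the *Myc* network and of ribosome biogenesis 38 rose and 4 fell (median 1.45). Beside *Myc* itself, *Srm*, spermidine synthase, had 12, 13.4 and 13.8 CPM in control and 93.8, 91.5 and 89.6 CPM in IL-4 (log2 fold change 2.81 ± 0.067). *Ppan*, a ribosome assembly factor, had 18.1, 15.5 and 15.3 CPM in control and 86.8, 87.8 and 87.1 CPM in IL-4 (2.42 ± 0.066). The 4 that fell were *Mycn* and the *Myc* antagonists *Mxd1* (from 29.5 ± 1.28 to 6.92 ± 0.569 CPM, -2.09), *Mxi1* (from 33.7 ± 0.875 to 20.8 ± 0.97 CPM, -0.699) and *Mnt* (-0.404). *Mycn* was at least 6.76-fold lower, with 0.792, 1.12 and 1.54 CPM in the control libraries. All 31 core proteasome genes rose (median 0.72), between 0.24 (*Psmd11*) and 1.06 (*Psmc5*).

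Amino acid, one-carbon and polyamine genes rose as well. Of 24 genes of serine synthesis, one-carbon metabolism and the ATF4 response 20 rose and 4 fell (median 1.58). *Slc7a5*, the large neutral amino acid transporter, had 5.12, 3.93 and 4.96 CPM in control and 46.6, 49.8 and 45.2 CPM in IL-4 (log2 fold change 3.33 ± 0.098). *Trib3*, a pseudokinase induced by ATF4, rose from 1.97 ± 0.294 to 16.2 ± 1.59 CPM (3.03). The members that fell included *Slc7a11*, the cystine transporter, from 23.1 ± 2.12 to 7.2 ± 0.423 CPM (-1.68). *Ddit4*, an inhibitor of mTORC1 signaling, fell from 3.88 ± 0.304 to 1.31 ± 0.267 CPM (-1.57). *Vldlr* fell from 3.07 ± 0.314 to 0.151 ± 0.131 CPM (-4.28). Of 22 genes of arginine and polyamine metabolism 15 rose and 7 fell (median 0.65). The arginine transporters *Slc7a2* and *Slc7a1* both rose. *Slc7a2* had 20.8, 24.4 and 19.9 CPM in control and 545, 507 and 504 CPM in IL-4 (4.58 ± 0.058). *Slc7a1* had 14.3, 13.8 and 15.8 CPM in control and 104, 114 and 99.1 CPM in IL-4 (2.86 ± 0.067). *Sat1*, which marks polyamines for breakdown, fell from 511 ± 19.6 to 190.4 ± 10.6 CPM (-1.42). *Paox*, a polyamine oxidase, fell from 39.5 ± 1.9 to 15.3 ± 0.695 CPM (-1.37). Among the other members, *Odc1*, *Sms* and *Amd1*, which make polyamines, rose, and *Smox*, which breaks them down, fell. *Nos2*, which makes nitric oxide from arginine, had at most 2 counts in any of the 6 libraries.

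Energy metabolism shifted by small amounts in many genes. Of 72 genes of the respiratory chain and ATP synthase 63 rose and 3 fell (median log2 fold change 0.52). The largest values were those of *Ndufb9* (1.31), *Atp5g1* (1.23) and *Ndufa12* (1.09), and the 3 that fell were *Ndufb2*, *Cox7a2l* and *Ndufa1*. The call of *Ndufa1* was lost with DESeq2 and when control replicate 1 or 3 or IL-4 replicate 1 or 2 was left out. In glycolysis and the pentose phosphate path 20 of 31 genes rose and 8 fell (median 0.39). The glucose transporter *Slc2a1* had 33.8, 41.3 and 36.8 CPM in control and 119.6, 107 and 105 CPM in IL-4 (log2 fold change 1.57 ± 0.061), and the lactate transporter *Slc16a1* rose from 19.3 ± 0.441 to 48 ± 5.73 CPM (1.31). *Ldha*, lactate dehydrogenase A, rose from 647 ± 22.1 to 1589.7 ± 51.2 CPM (1.3). *Ldhb*, the B subunit of the same enzyme, had 28.7, 29.8 and 27 CPM in control and 3.74, 3.74 and 2.73 CPM in IL-4 (-3.06 ± 0.12), and the transporter *Slc2a3* fell from 34.7 ± 0.182 to 11.1 ± 0.744 CPM (-1.65). *Pfkfb3*, which makes an activator of glycolysis, fell from 51 ± 1.53 to 26.3 ± 2.73 CPM (-0.95). In the tricarboxylic acid cycle 18 of 27 genes rose and 8 fell, counts that became 13 and 9 with scaling by library totals. Isocitrate dehydrogenases moved apart: the mitochondrial *Idh3a* and *Idh2* rose by 1.2 and 1.03, and the cytosolic *Idh1* fell from 489 ± 14.7 to 174 ± 9.47 CPM (-1.49). *Acod1*, which makes the antibacterial metabolite itaconate, had 37.5, 45.1 and 46.6 CPM in control and 2.68, 1.55 and 5.01 CPM in IL-4 (-3.8 ± 0.15).

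**Figure D5:**
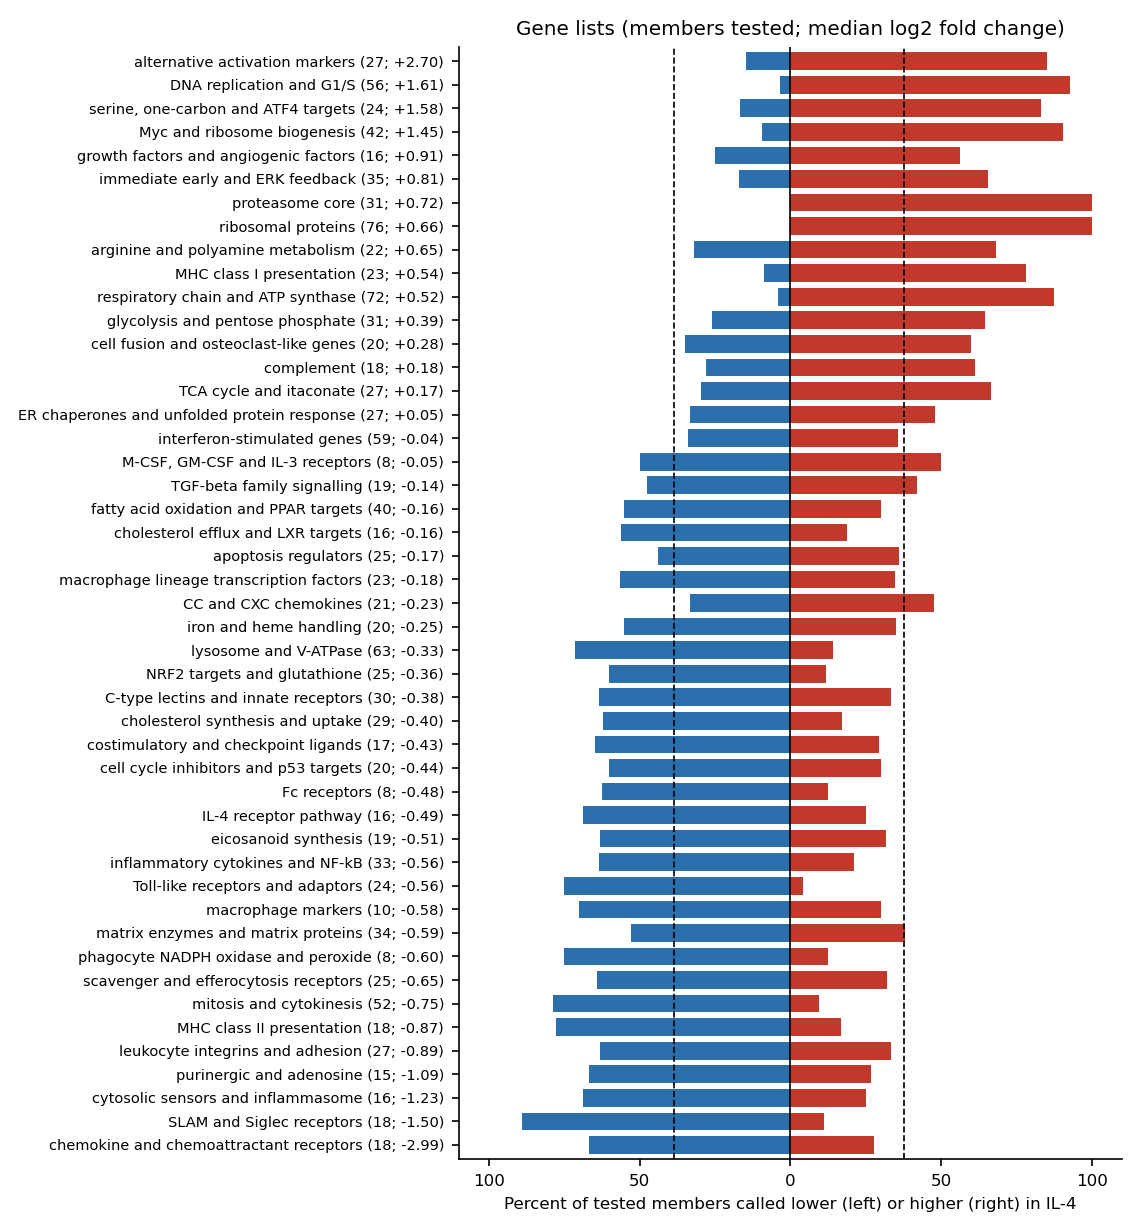
Percent of tested members called higher (right) and lower (left) in IL-4 for each functional list with at least 8 tested members (marker lists of granulocytes, dendritic cells and megakaryocytes are left out), with the median log2 fold change in figures beside each. Dashed lines mark the shares of all tested genes, 37.8% higher and 38.7% lower. Rows are in order of that median, with alternative activation markers (2.7) and chemokine and chemoattractant receptors (-2.99) at the ends. Ribosomal, proteasome, replication and ribosome biogenesis genes have the largest shares called higher. The share called lower is large in SLAM and Siglec receptors, mitotic genes, MHC class II genes and Toll-like receptors.

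Genes of innate sensing were lowered broadly. Of 24 Toll-like receptors and their adaptors 1 rose and 18 fell (median log2 fold change -0.56). *Tlr2*, which senses bacterial lipoproteins, had 136, 153 and 148 CPM in control and 9.33, 11.4 and 11.1 CPM in IL-4 (-3.78 ± 0.069, edgeR adjusted p = 1.91e-32). *Tlr9*, the endosomal sensor of unmethylated DNA, had 41.4, 39.2 and 44.8 CPM in control and 2.18, 1.61 and 1.77 CPM in IL-4 (-4.49 ± 0.12). *Irak3*, an inhibitory kinase of this pathway, fell from 38.6 ± 1.09 to 11.8 ± 0.17 CPM (-1.71). The LPS receptor *Tlr4* was named after its value was seen, because it moved less than *Tlr2* and *Tlr9*, from 125 ± 1.72 to 112 ± 3.99 CPM (-0.16). *Irak1* rose by 0.15, a call that was lost with scaling by library totals. Of 16 cytosolic sensors and inflammasome genes 4 rose and 11 fell (median -1.23). *Mefv*, which encodes pyrin, had 19.4, 20.5 and 25 CPM in control and 0.168, 0.518 and 0.456 CPM in IL-4 (-5.81 ± 0.21). *Nlrc4*, which reacts to bacterial flagellin through NAIP proteins, had 29.6, 28.5 and 28.1 CPM in control and 3.8, 3.8 and 4.95 CPM in IL-4 (-2.78 ± 0.11). *Nod1*, a sensor of peptidoglycan, fell from 23.8 ± 0.93 to 5.74 ± 0.498 CPM (-2.05). The DNA sensor *Cgas* rose from 13.8 ± 0.653 to 28.5 ± 1.74 CPM (1.05), the inflammasome adaptor *Pycard* by 0.73 and *Casp1* by 0.47. *Mefv* is also expressed by granulocytes, whose summed markers were 514 to 606 CPM in control and 1.94 to 3.52 CPM in IL-4.

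Inflammatory cytokines and NF-kB components followed the same direction. Of 33 tested members 7 rose and 21 fell (median log2 fold change -0.56), while *Il6* and *Nos2* were too low to test. Of the subunits of IL-12, *Il12a* had 1.48, 1.18 and 1.6 CPM and *Il12b* had 1.06, 0.955 and 1.37 CPM in the control libraries, and they were at least 8.32-fold and 6.61-fold lower in IL-4. *Ptgs2*, which encodes cyclooxygenase 2, rose from 0.373 ± 0.27 to 2.68 ± 1.13 CPM (2.83). *Tnfsf9*, the ligand of 4-1BB, rose from 4.26 ± 0.742 to 10.5 ± 1.95 CPM (1.3), and the anti-inflammatory cytokine *Il10* from 0.585 ± 0.516 to 1.38 ± 0.0713 CPM (1.26). The call of *Il10* was lost without control replicate 1, and all 5 genes were at low levels in both groups. Of the oxidant system, 6 of 8 genes fell. *Cybb*, which encodes the catalytic subunit gp91phox of the NADPH oxidase, had 1162, 1306 and 1311 CPM in control and 287, 269.8 and 257 CPM in IL-4 (-2.22 ± 0.047). *Hvcn1*, the proton channel that balances its charge, fell from 70.04 ± 1.24 to 21.2 ± 1.41 CPM (-1.72). *Mpo*, myeloperoxidase of neutrophil precursors, fell from 26.1 ± 4.32 to 0.225 ± 0.2002 CPM (-6.8), where granulocyte markers summed to 514 to 606 CPM in control and 1.94 to 3.52 CPM in IL-4, whose part was not tested. *Mpo* is itself on the granulocyte list. *Ncf4*, the p40phox subunit, was the 1 member that rose, from 170.4 ± 10.5 to 295 ± 1.6 CPM (0.79).

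Interferon-stimulated genes had no common direction. Of 59 tested members 21 rose (35.6%) and 20 fell (33.9%), with a median log2 fold change of -0.04. These shares are near those of all tested genes (37.8% and 38.7%). *Ifi27l2a*, a mitochondrial protein, rose from 19.8 ± 1.55 to 103 ± 1.63 CPM (2.38). *Usp18*, which removes ISG15 from proteins, rose from 3.95 ± 0.99 to 20.1 ± 2.2 CPM (2.36). *Oas1g*, a sensor of double-stranded RNA, rose from 6.59 ± 1.1 to 23.2 ± 1.6 CPM (1.82). The GTPases that attack vacuoles of intracellular pathogens moved in one direction where they were called, with 7 of 11 lower and the others not called. *Gbp3* fell from 8.55 ± 0.844 to 2.52 ± 0.085 CPM (-1.76). *Gbp8* fell from 1.81 ± 0.345 to 0.513 ± 0.255 CPM (-1.81), and *Gbp4* was at least 12.4-fold lower. These genes lie in clusters of near-identical copies, and *Gbp4* and *Gbp8* overlap *Gbp9*, so their reads may have been split between copies.

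Receptors for dying cells and modified lipoproteins were split by receptor. Of 25 scavenger and efferocytosis receptors and bridging molecules 8 rose and 16 fell (median log2 fold change -0.65). *Mertk* and *Axl*, which recognize phosphatidylserine through bridging proteins, were lowered strongly, while *Tyro3*, of the same receptor family, was too low to test, with at most 1 count in a control library and 10 in an IL-4 library. *Mertk* (ENSMUSG00000014361, chr2:128698956-128802894, plus strand) had 134, 141 and 159 CPM in control and 9.78, 8.64 and 7.46 CPM in IL-4 (-4.06 ± 0.077, edgeR adjusted p = 5.50e-32). *Axl* had 286, 325 and 339 CPM in control and 53.4, 47.8 and 50.3 CPM in IL-4 (-2.65 ± 0.056). *Marco*, which binds unopsonized bacteria, fell from 6.16 ± 0.842 to 0.171 ± 0.0583 CPM (-5.12). Beside *Cd36*, *Cd163*, the hemoglobin receptor, rose from 7.77 ± 1.29 to 15.9 ± 0.89 CPM (1.03). *Colec12*, a collectin receptor, rose from 26.8 ± 2.24 to 52.8 ± 2.77 CPM (0.98). Of 8 Fc receptor genes 1 rose and 5 fell. *Fcgr4*, an activating IgG receptor, had 75, 86.9 and 79.1 CPM in control and 12, 13.8 and 12.4 CPM in IL-4 (-2.66 ± 0.074). *Fcgrt*, the neonatal Fc receptor that recycles IgG, fell from 61.9 ± 5.99 to 20.1 ± 2.88 CPM (-1.62). *Fcrls* rose from 33 ± 3.59 to 164 ± 2.77 CPM (2.32). *Fcmr*, the IgM receptor of lymphocytes, was at least 9.76-fold lower beside B cell markers of 12 to 12.9 CPM in control and 1.09 to 1.77 CPM in IL-4.

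Lectin and paired receptors of myeloid cells fell more often than they rose. Of 30 C-type lectins and related receptors 10 rose and 19 fell (median -0.38), and the lectins that rose most, *Mgl2*, *Clec10a* and *Mrc1*, were those described above. *Clec1b*, the podoplanin receptor CLEC-2 of platelets, fell from 14.6 ± 1.65 to 0.322 ± 0.0372 CPM (-5.47). *Clec9a*, a receptor of dendritic cells for dead cells, fell from 3.66 ± 0.599 to 0.132 ± 0.0843 CPM (-4.72), and *Cd209a* was at least 13.8-fold lower. Megakaryocyte markers (412 to 459 CPM in control and 74.6 to 80.2 CPM in IL-4) and dendritic cell markers (58.1 to 58.3 CPM in control and 2.53 to 2.79 CPM in IL-4) moved with these, and their part was not tested. *Clec9a* and *Cd209a*, and *Siglech* named next, are themselves on the dendritic cell list. Of 18 SLAM and Siglec receptors 2 rose and 16 fell (median -1.5). *Siglech* and *Siglecg*, markers of plasmacytoid dendritic cells and B cells, were at least 32.6-fold and 12.2-fold lower, and *Slamf1* fell from 4.09 ± 0.251 to 0.132 ± 0.0845 CPM (-4.88). *Slamf9* rose from 6.88 ± 0.753 to 10.2 ± 2.05 CPM (0.56). *Siglec15*, an osteoclast receptor, rose from 0.108 ± 0.0893 to 0.815 ± 0.0989 CPM (2.81).

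Antigen presentation genes differed by class. Of 18 genes of the MHC class II path 3 rose and 14 fell (median log2 fold change -0.87), and of 23 genes of the class I path 18 rose and 2 fell (median 0.54). The 2 class I genes that fell became 1 without control replicate 1, control replicate 2 or IL-4 replicate 2. In class II, *H2-Ob* had 3.17, 3.65 and 3.08 CPM and *H2-Eb2* 1.27, 1.18 and 1.03 CPM in the control libraries and were at least 19.4-fold and 6.79-fold lower, and *H2-Oa* at least 4.07-fold. *H2-Oa* and *H2-Ob* form the peptide-loading modulator H2-O, which is best known from B cells. Dendritic cell markers (58.1 to 58.3 CPM in control and 2.53 to 2.79 CPM in IL-4) and B cell markers (12 to 12.9 CPM in control and 1.09 to 1.77 CPM in IL-4) moved with the class II genes and with the costimulatory genes below, and their part was not tested. *Cd74*, the invariant chain, rose from 155 ± 13.6 to 260 ± 7.2 CPM (0.75) and *Rfxap*, a subunit of the RFX factor that drives class II promoters, by 0.38. In class I, the immunoproteasome and its activator rose, with *Psme2* from 67.5 ± 6.86 to 155 ± 2.27 CPM (1.2). *Psmb10* rose from 69.5 ± 5.02 to 158 ± 1.84 CPM (1.19). *Psmb8* rose from 23.1 ± 1.71 to 51.3 ± 3.43 CPM (1.15). *Nlrc5*, the transactivator of class I genes, fell from 42.5 ± 2.28 to 32.4 ± 4.04 CPM (-0.39). Of 17 costimulatory and checkpoint ligands 5 rose and 11 fell. *Cd86*, a ligand of CD28, had 9.4, 11.3 and 9.41 CPM in control and 1.96, 1.38 and 1.71 CPM in IL-4 (-2.57 ± 0.18). *Icosl*, the ligand of ICOS, fell from 16.7 ± 1.44 to 1.87 ± 0.955 CPM (-3.15). *Cd83* fell from 51.2 ± 2.11 to 13.6 ± 0.617 CPM (-1.91). *Cd40* had 7.13, 7.86 and 9.47 CPM in control and 26.1, 29.2 and 28.6 CPM in IL-4 (1.78 ± 0.104).

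Chemokines of the CC and CXC classes moved apart. Of 13 tested CC chemokines 9 rose and 2 fell (median log2 fold change 1.08), and of 8 CXC and CX3C chemokines 1 rose and 5 fell (median -1.26). *Ccl8* and *Ccl12*, which bind receptors of monocytes, eosinophils and T cells, had no count in control and 7.21, 3.8 and 7.74 and 3.52, 2.53 and 3.19 CPM in IL-4, at least 37.6-fold and 18.6-fold higher. They lie with *Ccl7* in one cluster of related genes on chromosome 11. *Ccl24*, eotaxin 2, rose from 0.186 ± 0.131 to 13 ± 0.938 CPM (6.09). *Cxcl16*, a scavenger receptor and ligand of CXCR6, had 82.8, 90.8 and 95.2 CPM in control and 15.2, 14.8 and 15.7 CPM in IL-4 (-2.55 ± 0.068). *Ppbp*, a platelet chemokine, fell from 168 ± 9.65 to 1.66 ± 0.727 CPM (-6.65). *Ppbp* is itself on the megakaryocyte list, and megakaryocyte markers summed to 412 to 459 CPM in control and 74.6 to 80.2 CPM in IL-4, whose part in the count of CXC chemokines was not tested. *Cxcl5*, a neutrophil attractant, fell from 2.84 ± 0.196 to 0.112 ± 0.147 CPM (-4.56). Of 18 receptors 5 rose and 12 fell (median -2.99). *Ccr3*, the eotaxin receptor, had 1.21, 1.29 and 0.913 CPM in control and 27.5, 32.1 and 32.1 CPM in IL-4 (4.73 ± 0.15). *Ccr1* rose from 48.3 ± 3.09 to 103 ± 4.94 CPM (1.09). *C3ar1*, the receptor of complement fragment C3a, rose from 868 ± 11.2 to 1244 ± 7.21 CPM (0.52). *Ccr7*, *Fpr2* and *Cxcr1* were at least 50.2-fold, 18.2-fold and 13.6-fold lower. *Ccr7* is on the dendritic cell list, and *Fpr2* and *Cxcr1* are expressed by granulocytes, so the marker sums given above moved with them and their part was not tested.

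Lysosomal genes fell in number but by little. Of 63 genes of lysosomal enzymes and the proton pump 45 fell and 9 rose, with a median log2 fold change of -0.33. *Ctsh*, cathepsin H, had 429, 486 and 452 CPM in control and 82.7, 81 and 81.8 CPM in IL-4 (-2.48 ± 0.047). *Sgsh*, which degrades heparan sulfate, fell from 60.01 ± 2.92 to 15.8 ± 1.58 CPM (-1.93). *Ctsc*, cathepsin C, fell from 337 ± 7.18 to 92.6 ± 1.99 CPM (-1.86). Beside *Ctsl*, the pump subunits *Atp6v0a1*, from 437 ± 9.47 to 1279.8 ± 49.4 CPM (1.55), and *Atp6v1h*, from 117 ± 11.6 to 199.99 ± 3.63 CPM (0.78), rose. Of 25 genes of the NRF2 response and glutathione metabolism 3 rose and 15 fell (median -0.36). With scaling by library totals 1 rose and 16 fell, with upper-quartile scaling or DESeq2 2 rose, and without control replicate 2 5 rose. *Gpx3*, a secreted glutathione peroxidase, had 170.2, 182 and 179.7 CPM in control and 12.1, 13 and 11.8 CPM in IL-4 (-3.85 ± 0.0603). *Gsr*, glutathione reductase, had 154, 164 and 150.4 CPM in control and 20.9, 23.1 and 22.2 CPM in IL-4 (-2.82 ± 0.057). *Gsta3*, a glutathione transferase, fell from 5.28 ± 0.972 to 0.55 ± 0.271 CPM (-3.25). Of 20 genes of iron and heme handling 7 rose and 11 fell. *Slc40a1*, which encodes ferroportin, the iron exporter, had 92.4, 111 and 91.5 CPM in control and 1.06, 0.864 and 0.399 CPM in IL-4 (-6.97 ± 0.13, edgeR adjusted p = 6.30e-32), and *Spic*, the transcription factor of iron-recycling macrophages, was at least 27.9-fold lower. *Tfrc*, the transferrin receptor, rose from 171 ± 4.58 to 294 ± 12.8 CPM (0.78) and the ferric reductase *Steap3* from 65.5 ± 0.329 to 115 ± 3.17 CPM (0.81). The exporter was thus lower, and the genes of transferrin iron uptake higher, in every IL-4 library.

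Lipid genes moved in both directions. Of 29 genes of cholesterol synthesis and uptake 5 rose and 18 fell (median log2 fold change -0.4), and 2 and 20 did with scaling by library totals, while 3 rose without control replicate 1. *Sc5d* fell from 109.9 ± 7.1 to 47.9 ± 5.43 CPM (-1.2). *Mvd* fell from 73.8 ± 2.61 to 32.5 ± 3.09 CPM (-1.18). *Insig1* fell from 176 ± 3.08 to 91.3 ± 1.5 CPM (-0.95), and *Sqle*, a rate-limiting enzyme, rose by 0.37. Of 16 genes of cholesterol efflux and LXR targets 3 rose (18.8%) and 9 fell (56.2%), and 2 and 7 did in the fit of all 15 libraries. *Abca1*, the exporter that loads cholesterol onto apolipoprotein A1, had 189, 201 and 217 CPM in control and 24.5, 16.6 and 21.4 CPM in IL-4 (-3.28 ± 0.072, edgeR adjusted p = 4.81e-30). *Mylip*, an LXR target that degrades the LDL receptor, fell from 62 ± 2.56 to 17 ± 0.999 CPM (-1.86). *Nr1h3*, which encodes LXR alpha, fell from 55.3 ± 4.89 to 22.4 ± 0.648 CPM (-1.3). *Fasn*, fatty acid synthase, rose from 124 ± 6.98 to 180.3 ± 14.6 CPM (0.54). *Scd2* rose from 250.1 ± 2.93 to 344 ± 40.8 CPM (0.46). Of 40 genes of fatty acid oxidation and PPAR targets 12 rose (30%) and 22 fell (55.0%), against 37.8% and 38.7% of all tested genes. Beside *Lpl* and *Cd36*, *Hilpda*, a lipid droplet protein that inhibits lipolysis, rose from 6.4 ± 1.05 to 20.9 ± 3.43 CPM (1.7). *Fabp4* fell from 264 ± 26.7 to 75.5 ± 5.79 CPM (-1.8). *Ppard* fell from 40.7 ± 1.24 to 6.17 ± 1.12 CPM (-2.72). *Angptl4*, an inhibitor of lipoprotein lipase, fell from 16.5 ± 1.68 to 2.42 ± 0.0333 CPM (-2.76).

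Adhesion and matrix genes moved in both directions. Of 27 integrins and adhesion molecules 9 rose and 17 fell (median log2 fold change -0.89). *Cdh1*, E-cadherin, had 1.48, 1.24 and 1.31 CPM in control and 62.1, 61.3 and 59.1 CPM in IL-4 (5.49 ± 0.11, edgeR adjusted p = 3.05e-31). *Cd81*, a tetraspanin, had 16.7, 16 and 17.6 CPM in control and 96.2, 97 and 91.6 CPM in IL-4 (2.5 ± 0.062). *Cd9* rose from 408 ± 10.4 to 554 ± 38.1 CPM (0.44). *Vcam1*, the ligand of integrin alpha 4 beta 1, had 40.2, 41.8 and 40.2 CPM in control and 0.67, 0.979 and 0.683 CPM in IL-4 (-5.7 ± 0.14). *Itga1* fell from 5.53 ± 0.537 to 0.285 ± 0.102 CPM (-4.25) and *Itga2* was at least 25.8-fold lower. Of 34 matrix enzymes and matrix proteins 13 rose (38.2%) and 18 fell (52.9%), against 37.8% and 38.7% of all tested genes. *Mmp13*, a collagenase, had 2.53, 2.86 and 2.11 CPM in control and 99.4, 95.6 and 111 CPM in IL-4 (5.34 ± 0.095). *Fn1*, fibronectin, had 45.1, 52.1 and 56.5 CPM in control and 545, 563 and 460.3 CPM in IL-4 (3.35 ± 0.065). *Lama3*, a laminin chain, rose from 1.51 ± 0.147 to 12.5 ± 0.581 CPM (3.04). Beside *Thbs1*, *Timp3*, an inhibitor of metalloproteases, had 21.4, 20 and 16.7 CPM in control and 0.223, 0 and 0.228 CPM in IL-4 (-6.94 ± 0.26), and *Sparc* was at least 16.1-fold lower. Matrix proteins on the list had a median of -2.95, or -2.11 with genes at the limit of detection placed at their bound, and stromal markers such as *Col1a1* (at least 53.9-fold lower) moved with them (17.5 to 22.8 CPM in control and 0.456 to 1.17 CPM in IL-4), which was not tested. Of 20 genes of macrophage fusion and osteoclasts 12 rose and 7 fell. *Ocstamp*, a membrane protein required for fusion, had 0.317, 0.112 and 0.399 CPM in control and 22, 17.6 and 19.6 CPM in IL-4 (6.12 ± 0.22). *Itgb3*, the osteoclast integrin chain, fell from 148 ± 11 to 55.3 ± 2.11 CPM (-1.42). *Acp5*, tartrate-resistant acid phosphatase, fell from 46.2 ± 3.12 to 21.5 ± 0.908 CPM (-1.1). *Nfatc1*, the osteoclast transcription factor, fell from 63.8 ± 4.24 to 36.3 ± 1.78 CPM (-0.81). Of the 12 fusion genes on the list 8 rose and 4 fell (median 0.38), and of the 8 tested osteoclast genes 4 rose and 3 fell (median 0.12).

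Signaling genes beyond the list of the IL-4 receptor pathway changed too, and whether STAT6 acts on them was not tested. Of 35 immediate early genes and ERK feedback regulators 23 rose and 6 fell (median log2 fold change 0.81). *Dusp4*, a phosphatase that inactivates ERK, had 20.6, 16.6 and 20.9 CPM in control and 193, 184 and 177 CPM in IL-4 (3.25 ± 0.063). *Klf7* fell from 11.9 ± 0.163 to 5.9 ± 1.04 CPM (-1.005) and *Spry1* was at least 5.87-fold lower. Of 16 growth and angiogenic factors 9 rose and 4 fell (median 0.91). *Hbegf*, an EGF receptor ligand, had 0.264, 0.842 and 0.399 CPM in control and 23, 21.7 and 20.8 CPM in IL-4 (5.43 ± 0.198). *Hgf*, hepatocyte growth factor, had 35.1, 33.2 and 39 CPM in control and 3.3, 4.15 and 2.79 CPM in IL-4 (-3.39 ± 0.12). *Pdgfc* fell from 5.41 ± 0.408 to 1.04 ± 0.219 CPM (-2.37). In the TGF-beta family 8 of 19 genes rose (42.1%) and 9 fell (47.4%), near the 37.8% and 38.7% of all tested genes. *Acvr1*, a type I receptor, rose by 0.58, *Smurf1*, a ubiquitin ligase, by 0.54 and *Gdf3*, a ligand, by 0.51 on the log2 scale. *Smad3*, which carries the signal to the nucleus, fell from 26.7 ± 0.354 to 5.04 ± 0.164 CPM (-2.4). *Inhba*, which encodes activin A, fell from 1.998 ± 0.326 to 0.246 ± 0.117 CPM (-2.98). *Bmp2* fell from 23.4 ± 1.74 to 6.16 ± 0.865 CPM (-1.93). Of 15 purinergic and adenosine genes 4 rose and 10 fell (median -1.09). *Entpd1*, the ectonucleotidase CD39 that breaks down ATP, had 135, 149 and 146 CPM in control and 20.8, 17.4 and 18 CPM in IL-4 (-2.93 ± 0.062), and the adenosine receptors moved apart, with *Adora2b* from 1.47 ± 0.31 to 19 ± 1.91 CPM (3.68) and *Adora2a* from 3.42 ± 0.846 to 0.114 ± 0.1004 CPM (-4.83). Of 19 eicosanoid genes 6 rose and 12 fell. *Pla2g4a*, the phospholipase that frees arachidonic acid, rose from 23.6 ± 1.43 to 89.9 ± 4.59 CPM (1.93). *Hpgd*, which degrades prostaglandins, had 47.3, 51.2 and 54.9 CPM in control and 2.12, 2.48 and 2.85 CPM in IL-4 (-4.36 ± 0.11). *Alox12*, a lipoxygenase of platelets, fell from 22.5 ± 2.88 to 0.301 ± 0.231 CPM (-6.19), where megakaryocyte markers summed to 412 to 459 CPM in control and 74.6 to 80.2 CPM in IL-4, whose part was not tested.

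Regulators of survival and lineage changed with smaller medians. Of 25 apoptosis regulators 9 rose (36.0%) and 11 fell (44.0%), shares near those of all tested genes (37.8% and 38.7%), so the members named next are single genes and not a pattern of the list. The survival factors *Bcl2*, with 7.29, 6.63 and 7.76 CPM in control and 27.7, 30.1 and 29.3 CPM in IL-4 (log2 fold change 2.01 ± 0.099), and *Bcl2l1*, which encodes BCL-XL, from 62.9 ± 3.11 to 182 ± 0.721 CPM (1.54), rose with the kinase *Pim3* (1.72). The pro-apoptotic BH3 genes *Bmf*, with 28.7, 29.3 and 30.2 CPM in control and 2.79, 1.9 and 2.39 CPM in IL-4 (-3.63 ± 0.13), and *Pmaip1*, from 13.7 ± 0.346 to 2.37 ± 0.525 CPM (-2.53), fell with the death receptor *Fas* (-1.9). Of 23 lineage transcription factors 8 rose (34.8%) and 13 fell (56.5%). *Ets2* had 21.9, 21.8 and 23.7 CPM in control and 66, 64.7 and 63.4 CPM in IL-4 (1.53 ± 0.064). *Mitf* rose from 85.8 ± 2.26 to 151 ± 1.56 CPM (0.82). *Id2* rose from 151 ± 5.2 to 247 ± 16.6 CPM (0.71). *Bach1*, a heme-sensing repressor, fell from 160.1 ± 4.94 to 74.1 ± 1.33 CPM (-1.11). *Batf* fell from 8.35 ± 0.609 to 3.9 ± 0.24 CPM (-1.1). Of 8 colony-stimulating factor receptors 4 rose and 4 fell. The shared beta chain *Csf2rb* of the GM-CSF and IL-3 receptors rose from 367 ± 15.2 to 576 ± 29.7 CPM (0.65). *Csf3r*, the G-CSF receptor of granulocytes, had 166, 176 and 184 CPM in control and 44.5, 44.3 and 39.1 CPM in IL-4 (-2.04 ± 0.054), and *Flt3*, a receptor of progenitors and dendritic cells, had no count in IL-4. Beside these, granulocyte markers summed to 514 to 606 CPM in control and 1.94 to 3.52 CPM in IL-4, and dendritic cell markers to 58.1 to 58.3 and 2.53 to 2.79 CPM, and their part was not tested. *Flt3* is itself on the dendritic cell list.

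IL-13 shares the type II receptor with IL-4, and the series holds 3 libraries of BMDMs given IL-13 at 40 ng/ml for 24 h. The doses differ from that of IL-4, and both comparisons share the same control libraries, so the values are set side by side. In a joint edgeR fit of the 9 libraries with 13682 genes tested, IL-13 raised 4441 genes over control and lowered 4424, with 244 and 767 past a log2 fold change of 2 in size. Directly between the treatments, 9.70% of the genes (1327) were higher in IL-4 and 10.5% (1434) lower, and 151 and 175 of these differed by more than 1 on the log2 scale. These counts moved when 1 library was left out, from 705 and 875 without IL-13 replicate 3 and 724 and 897 without IL-4 replicate 3 to 2718 and 2671 without IL-13 replicate 1. Without IL-4 replicate 1, IL-4 replicate 2 or IL-13 replicate 2, 796 to 871 were higher and 930 to 1052 lower. Of the 315 genes that IL-4 raised by more than 2, 164 were higher in IL-4 than in IL-13, 7 were lower and 144 were not called. Of the 930 that IL-4 lowered by more than 2, 191 were lower in IL-4 than in IL-13, 10 were higher and 729 were not called.

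*Retnla* had 0 ± 0 CPM in control, 759 ± 53.8 CPM in IL-4 and 52.6 ± 5.2 CPM in IL-13, with a log2 difference of 3.85 ± 0.084 between the treatments (edgeR adjusted p = 1.87e-12). It was therefore raised by both cytokines and was higher with IL-4 at these doses. Of 27 alternative activation markers, 24 were higher in IL-4 than in IL-13 and 1 was lower. The largest difference in this direction was that of *Scn3a*, a sodium channel subunit, with 0.201 ± 0.174 CPM in control, 14.5 ± 1.1 CPM in IL-4 and 0.152 ± 0.217 CPM in IL-13 (6.55 ± 0.41), which was named for its size after its values were seen. In the other direction, *Cx3cr1*, the fractalkine receptor, had 139 ± 8.92 CPM in control, 5.59 ± 1.12 CPM in IL-4 and 40.1 ± 2.68 CPM in IL-13 (-2.85 ± 0.12), *Tlr2* had 145 ± 8.76 CPM in control, 10.6 ± 1.12 CPM in IL-4 and 29.5 ± 3.59 CPM in IL-13 (-1.48 ± 0.104) and *Cd14* had 296 ± 5.55 CPM in control, 106 ± 2.85 CPM in IL-4 and 267 ± 40.1 CPM in IL-13 (-1.34 ± 0.083). IL-4 libraries were thus lower than IL-13 libraries in all of these. *Tlr2* and *Cd14* are among the genes named above and are not next in size after *Cx3cr1*. Larger differences were those of *Dmpk* (-2.2), *Sncaip* (-1.95) and *Dmwd* (-1.67), which rose over control with both cytokines. They were also larger for *Clec4e* (-1.58), which fell with both, *Ifit3* (-1.58), which rose with IL-13 only, and *Plcb4* (-1.56), which fell with IL-4 only. In this fit, 34 of 60 interferon-stimulated genes and 18 of 52 mitotic genes were lower in IL-4 than in IL-13, and the others were not called. Ribosomal protein genes were higher in IL-4 for 70 of 77 members and respiratory chain genes for 31 of 72, again with no call for the others.

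Of the 331 genes chosen by rule for this account, 142 overlap another annotated gene, whose reads could be counted on either where strand was not used. For 25 of these the overlapping gene reached 10% or more of the level of the gene itself in a group. Those named above with such a partner include *Tgm2*, *Cxcl16*, *Gbp4*, *Gbp8*, *Irak3*, *Tnfsf9*, *Nlrc5*, *Pdcd1lg2*, *Clec1b*, *Clec9a*, *Ccnd1*, *Ccna2*, *Ndufb2*, *Paox*, *Hvcn1* and *Stat6*. For *Pdcd1lg2* the antisense partner fell while the gene rose, with 7.50 CPM in control and 1.23 CPM in IL-4, and for *Ccnd1* the partner had 21.5 and 25.4 CPM.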

How the data were processed

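RNA of BMDMs was sequenced and first analysed for the authors by a commercial provider. Deposited by the authors were a table of raw counts (whole reads on each of 53465 Ensembl identifiers, not normalized) and an FPKM list for each library. The submitters' processing notes name CASAVA, Bowtie2 2.2.3, HISAT2 2.1.0, TopHat2, DESeq2 and the build GRCm38, while their roles, the counting tool, its annotation and its use of strand are not given in the sources used here. The FPKM values deposited by the authors were checked against the counts but not tested.

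The 3 control and 3 IL-4 libraries were tested on their raw counts by edgeR 4.0.16, run in R 4.3.3 (filterByExpr with a minimum count of 10, TMM scaling, quasi-likelihood F-test, Benjamini-Hochberg adjustment over all 13428 genes, threshold 0.05). The 9 libraries with IL-13 were fitted jointly for the comparison of the cytokines. Depth was 17001352 to 18479299 counts per library in the 6 main libraries. Alternatives were DESeq2 1.42.0, other scalings, other filters, other sets of libraries, a replicate block and leaving out 1 library at a time, with limma 3.58.1 as a dependency of edgeR. The procedure was tested on simulated data in which few genes changed, in equal numbers in both directions. Most genes changed in the real comparison, so the simulation cannot show how the scaling behaves there. Symbols, coordinates and overlaps are from the GENCODE annotation of GRCm38 and promoters from RefSeq.

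The 56 gene lists and the comparison were chosen with earlier results of these data known. Genes were named by rule: the 12 largest log2 fold changes per direction (at least 10 CPM in the higher group, no overlap of replicates), the 8 largest differences in CPM per direction, up to 3 called members per list and direction, all members of the IL-4 receptor pathway and all macrophage markers. Some genes that the rule names are not reported here. Others are said to have been chosen after their values were seen, or stand in a list's full account. Lists are described by counts and medians without a set test.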

Additional observations from a re-analysis of the deposited data

How the results depend on the processing

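Calls for all genes between IL-4 and control were counted again under other choices. The numbers higher and lower (5082 and 5195) were 4512 and 5725 with library totals, 4786 and 4981 with DESeq2, 4987 and 5088 with the replicate number as a block, and 4952 to 5025 and 5041 to 5155 with any 1 library left out. Counts past a fold limit depended on the filter, as fewer or more low genes were tested: without a filter, 480 genes rose and 1635 fell by more than 2 on the log2 scale (315 and 930), and with a minimum count of 50, 1401 fell by more than 1 (2125) and 525 by more than 2. The replicate numbers did not pair the samples (correlations of same-numbered deviations 0.0114, -0.0239 and -0.0167), so the block value is given here only. Between IL-4 and IL-13, a minimum count of 50 left 113 genes lower by more than 1 (175), and leaving out 1 library moved the calls to between 705 and 2718 higher (1327), between 875 and 2671 lower (1434) and between 122 and 265 lower by more than 1. The highest of each came without IL-13 replicate 1, and the cause was not tested. Of the named genes, Stat6 changed sign with library totals (-0.01, not called either way), while 973 values of single genes under other choices of scaling and tool kept direction and side of the threshold and 19 lost the call. With 1 library left out, 1960 values kept both, 23 lost the call and 1, that of Stat6 without IL-4 replicate 3, gained it. Of the counts of called members per list, 12 values moved by over 1.5 times under other choices and 8 with 1 library left out. Low levels limit the rest: for the 268 lowered genes with at most 3 counts in every IL-4 library only bounds can be given.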

Other observations

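Complement genes were mostly raised by small amounts. Of 18 tested members 11 rose and 5 fell (median log2 fold change 0.18), against 37.8% and 38.7% of all tested genes, and 9 and 5 (median 0.09) with scaling by library totals, while 7 rose in the fit of all 15 libraries. *C1qa*, a chain of the first complement component, rose from 178 ± 23.3 to 288 ± 8.32 CPM (log2 fold change 0.696), and *C4b* rose from 0.223 ± 0.103 to 0.997 ± 0.593 CPM (2.14). *Vsig4*, the complement receptor of resident tissue macrophages, had 2.16, 2.75 and 2.68 CPM in control and 0.112, 0.115 and 0 CPM in IL-4 and was at least 14.9-fold lower, and the complement inhibitor *Cd55*, which protects cells from lysis, fell from 1.64 ± 0.414 to 0.226 ± 0.149 CPM (-2.81). Genes of endoplasmic reticulum chaperones and the unfolded protein response moved in both directions. *Pdia4*, a disulfide isomerase, rose from 141 ± 9.04 to 337 ± 3.55 CPM (1.26) and *Creld2* from 43.1 ± 2.8 to 95.1 ± 4.42 CPM (1.14), while the sensor kinases *Ern1*, from 93.4 ± 4.11 to 47.4 ± 2.33 CPM (-0.98), and *Eif2ak3*, from 43.6 ± 2.34 to 29.9 ± 2.53 CPM (-0.54), fell. Of the 27 genes of this list 13 rose (48.1%) and 9 fell (33.3%), and 13 and 13 did with scaling by library totals.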
